A study of Mus musculus with 12 samples.

Results

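The regions described here are 1569 stretches of open chromatin in B16F10 mouse melanoma cells whose peaks ranked lower after decitabine (DAC) than in untreated cells. They were chosen from 35979 regions that had an ATAC-seq peak in all 6 B16F10 libraries, out of 79461 regions with a peak in any of them. A region entered when its percentile of fold enrichment in each of the 3 DAC libraries was below that in each of the 3 controls, and when the mean control percentile exceeded the mean DAC percentile by at least 15 points. Members therefore made up 4.36% of the shared regions, and the mirrored rule selected 1592 regions that ranked higher after DAC. Since the B16F10 fold enrichments chose the members, every B16F10 value of a member below is a description without a test.

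In ATAC-seq a transposase inserts sequencing adapters into DNA that is not wrapped in nucleosomes, so that peaks mark accessible promoters, enhancers and insulators. The study treated 2 mouse tumour lines, the melanoma line B16F10 with 0.1 µM DAC and the mammary carcinoma line 4T1 with 1 µM DAC, for 48 h, and kept untreated cells of each line as controls. Each of the 4 groups held 3 libraries, dead cells had been taken out with beads, and nothing in the labels says that the replicates came from separate cultures. All p-values below therefore measure only the spread between libraries, which may be technical. Peaks had been called in each library on its own, with 50126 to 58468 peaks per B16F10 library and 90608 to 119795 per 4T1 library. The fold enrichment is the authors' own value per peak, set against background in that library. Because it was lower over all peaks after DAC, with medians of 7.50 to 7.67 in DAC against 8.21 to 8.64 in control B16F10 libraries, regions were compared by percentile within a library, where 100 is the highest fold. These are bulk samples, in which fewer cells with an open site and less opening per cell cannot be told apart.

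DAC is a cytidine analogue that is built into replicating DNA, where it traps DNA methyltransferases and lowers CpG methylation over cell divisions. CTCF, the zinc-finger protein that anchors chromatin loops and insulators, binds some of its sites only when their CpGs are unmethylated. ATF4, the transcription factor of the integrated stress response, binds as a pair with C/EBP proteins at a composite of an ATF part and a C/EBP part, and AP-1, the dimer of FOS and JUN proteins, binds enhancers in many cell types. The melanocyte identity of the line could be read from open promoters, since 15 of 22 listed melanocyte genes had a promoter peak in all 6 B16F10 libraries, among them Mitf, Sox10, Pax3, Tyrp1, Dct, Pmel and Mlana. By contrast, a promoter peak was present at 1 of 11 leukocyte genes (Lyz2), 2 of 11 fibroblast and endothelial genes (Col1a1 and Pdgfrb) and 1 of 12 epithelial genes (Elf3), with the same counts in controls and DAC. The promoters of the leukocyte gene Ptprc and the epithelial gene Epcam had no peak in any B16F10 library. The same was true of the remaining melanocyte genes of the list, Tyr, Oca2, Trpm1, Kit, Ednrb, Tfap2a and Lef1.

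The sequences shown here hold an added word and the listed motifs CTCF and SOX. The shares of these listed motifs in members stood furthest above those in other shared regions, by 8.10 points for CTCF and 1.05 for SOX. Each sequence has 30 bases on either side of the motif, written 5′ to 3′ on the strand that reads the motif and taken from the reference genome mm10. The word TGATGCAA, which joins an ATF part and a C/EBP part, was taken up after words of 7 bases had been counted in the members, and it is shown in capitals in the 7 members with the largest difference that hold it. They are chr2:114326135-114326202 (+), chr7:96817188-96817255 (+), chr5:31602562-31602629 (+), chr6:7833825-7833892 (-), chr7:113140115-113140182 (-), chr2:7002149-7002216 (+) and chr5:65705458-65705525 (+), in the order printed.
Near Zfp770: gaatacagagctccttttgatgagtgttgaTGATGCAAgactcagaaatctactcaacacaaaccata
Inside Tenm4: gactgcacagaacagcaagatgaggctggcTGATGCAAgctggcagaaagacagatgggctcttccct
Inside Mrpl33: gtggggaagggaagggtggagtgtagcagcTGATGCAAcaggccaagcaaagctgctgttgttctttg
Near C1galt1: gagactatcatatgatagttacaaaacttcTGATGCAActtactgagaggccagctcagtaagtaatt
Near Arntl: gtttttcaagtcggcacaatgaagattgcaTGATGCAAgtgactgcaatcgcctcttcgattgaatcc
Inside Celf2: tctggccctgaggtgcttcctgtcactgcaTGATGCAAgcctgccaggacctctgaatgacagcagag
Near Pds5a: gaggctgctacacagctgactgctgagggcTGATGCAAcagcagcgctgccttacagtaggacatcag

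The CTCF motif, a core of 11 positions of which several allow more than 1 base, is in capitals in the 2 members with the largest difference that hold it, at chr6:139596596-139596666 (+) and chr12:44181475-44181545 (-). SOX words (AACAATG or ACAAAGG), bound by the family of the melanocyte regulator SOX10, are in capitals in the 2 leading holders, at chr6:7833908-7833974 (-) and chr2:69531846-69531912 (+). The SOX stretch near C1galt1 lies in the same region as the TGATGCAA stretch above.
Inside Pik3c2g: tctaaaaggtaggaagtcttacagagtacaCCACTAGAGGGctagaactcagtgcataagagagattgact
Near Dnajb9: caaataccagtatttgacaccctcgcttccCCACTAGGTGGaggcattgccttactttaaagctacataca
Near C1galt1: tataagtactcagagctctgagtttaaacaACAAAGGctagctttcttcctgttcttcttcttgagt
Inside Lrp2: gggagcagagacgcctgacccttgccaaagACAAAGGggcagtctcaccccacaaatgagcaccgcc

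Over the members, the median difference was 20.6 points, with quartiles of 17.5 and 25.3 and a largest value of 66.4. There were 860 members at or above 20 points, 175 at or above 30, 26 at or above 40 and 7 at or above 50. The median member stood at the 56.8th percentile in controls and at 32.3 in DAC, so that members were of middling strength in untreated cells and weak after DAC. Mean control percentiles ran from 17.7 to 97.4, since a region below 15 cannot fall by 15. In folds, the member medians were 11.95, 11.6 and 11.7 in the 3 control libraries and 7.98, 8.32 and 7.72 in the 3 DAC libraries. The medians of all shared regions went from 11.0, 10.7 and 10.7 to 9.86, 10.2 and 9.64, so the fold dropped further in members than over the whole set. Peaks of members were also narrower after DAC, with median widths of 498 to 548 bp against 579 to 608 bp in controls. At the threshold, the regions just inside had differences of 15.007 (in an intron of Amn), 15.005 (near Pja1) and 15.005 (near Lhx3). Those just outside had 14.996 (in Supt6), 14.995 (near Fermt1) and 14.994 (at the promoter of Rab35). Without a minimum size, 3929 shared regions (10.92%) had all DAC percentiles below all control percentiles and 4088 (11.4%) had the reverse.

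**Figure D1:**
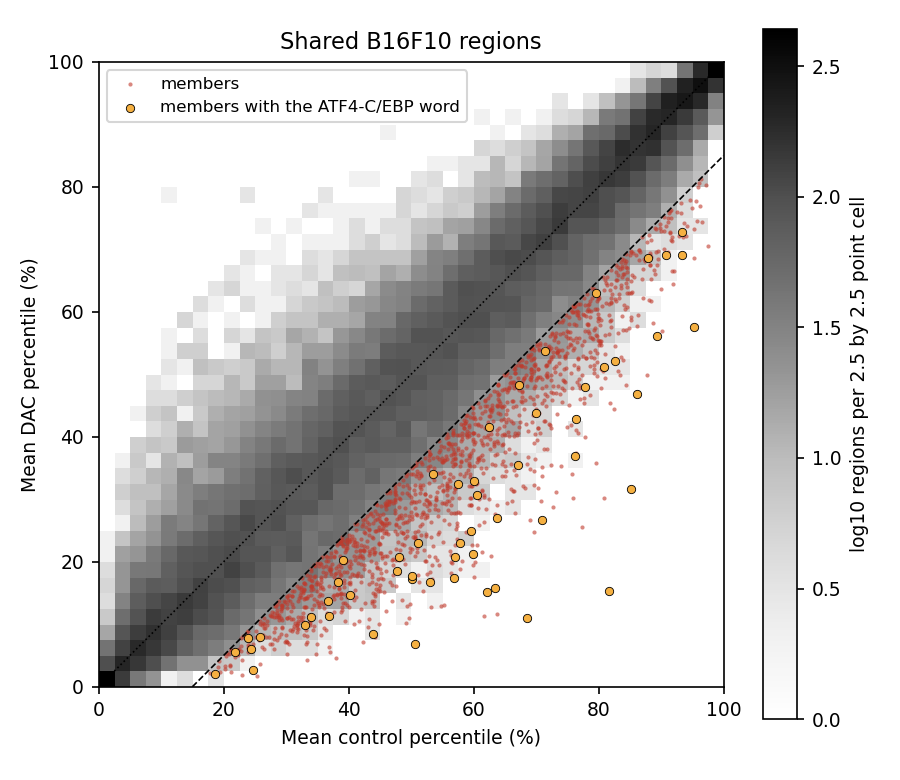
Mean DAC percentile against mean control percentile of fold enrichment in B16F10 (both in %), with all 35979 shared regions as grey cells (log10 number), the 1569 members as red points and the 55 members holding TGATGCAA as orange points. The dotted line marks equal percentiles and the dashed line a difference of 15 points. Grey cells below the dashed line count the members and also regions whose arms overlapped. Below the diagonal the point farthest from it is orange, at a difference of 66.4.

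The member with the largest difference lay between genes on chromosome 2, at chr2:114325670-114326257, 124653 bp from the nearest protein-coding start, that of the zinc-finger gene Zfp770. Its percentiles were 93.8, 71.2 and 79.8 in the control libraries and 23.6, 14.0 and 8.26 in the DAC libraries, and its folds 18.3, 13.9 and 14.99 against 6.91, 5.99 and 4.91. It held TGATGCAA and had no peak in any 4T1 library. The next member, chr7:96817051-96817614, was in an intron of Tenm4, which encodes a teneurin cell-surface protein, and also held TGATGCAA. There the control percentiles were 68.9, 71.6 and 65.2 and the DAC percentiles 5.81, 16.4 and 10.91. This site was open in all 6 4T1 libraries at percentiles of 67.4, 66.7 and 63.4 in controls and 65.8, 71.4 and 69.0 in DAC, with overlapping arms (difference −2.92, SE 2.08, adjusted p = 0.278, limma). The member at chr5:31602160-31602885, in an intron of the mitochondrial ribosomal protein gene Mrpl33, read 83.3, 92.4 and 80.0 in controls and 28.5, 26.3 and 40.2 in DAC.

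An intron of L1cam, a neural cell adhesion gene, held the member chrX:73859632-73860398, with 55.7, 62.7 and 72.8 in controls and 13.8, 3.95 and 17.1 in DAC. Near Lgi2 the member chr5:52616464-52617054 was tight within each arm, at 79.4, 75.4 and 77.5 in controls and 23.6, 24.7 and 28.5 in DAC. An intron of Pik3c2g, a class II phosphoinositide 3-kinase gene, held chr6:139596372-139597115, at 77.9, 81.0 and 83.4 against 20.2, 39.4 and 30.7, and this was the only member of the 10 with a CTCF motif. The controls were spread more widely in the intron of Dnm2, the gene of the endocytic GTPase dynamin 2, at chr9:21439313-21440342, with 74.2, 60.4 and 50.7 against 11.3, 6.99 and 15.7. The same held near C1galt1, a glycosyltransferase gene of O-glycan synthesis, at chr6:7833548-7834266, where control library 2 stood highest at 82.7 beside 60.3 and 47.3, and DAC gave 13.8, 16.4 and 17.1.

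Between genes near Arntl, which encodes the clock protein BMAL1, the member chr7:113139577-113140577 had 62.8, 66.3 and 57.4 in controls and 12.5, 20.4 and 12.3 in DAC. Of the 3 among the leading 10 that were open in all 6 4T1 libraries, it was the only member that fell in rank there, from 23.6, 24.4 and 24.99 to 2.24, 15.8 and 6.03 (difference 16.3, SE 3.56, adjusted p = 0.0105, limma). Near Cmpk2, a mitochondrial nucleotide kinase gene, chr12:26855013-26855614 had 73.3, 86.7 and 67.7 against 30.5, 36.4 and 23.7. None of these 10 lay at a promoter. The mean DAC fold of each was between 0.377 and 0.525 of its mean control fold. Low folds repeated exactly between regions, as at 6.91 in DAC library 1 near both Zfp770 and Lgi2, so ranks at the low end moved in steps.

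**Figure D2:**
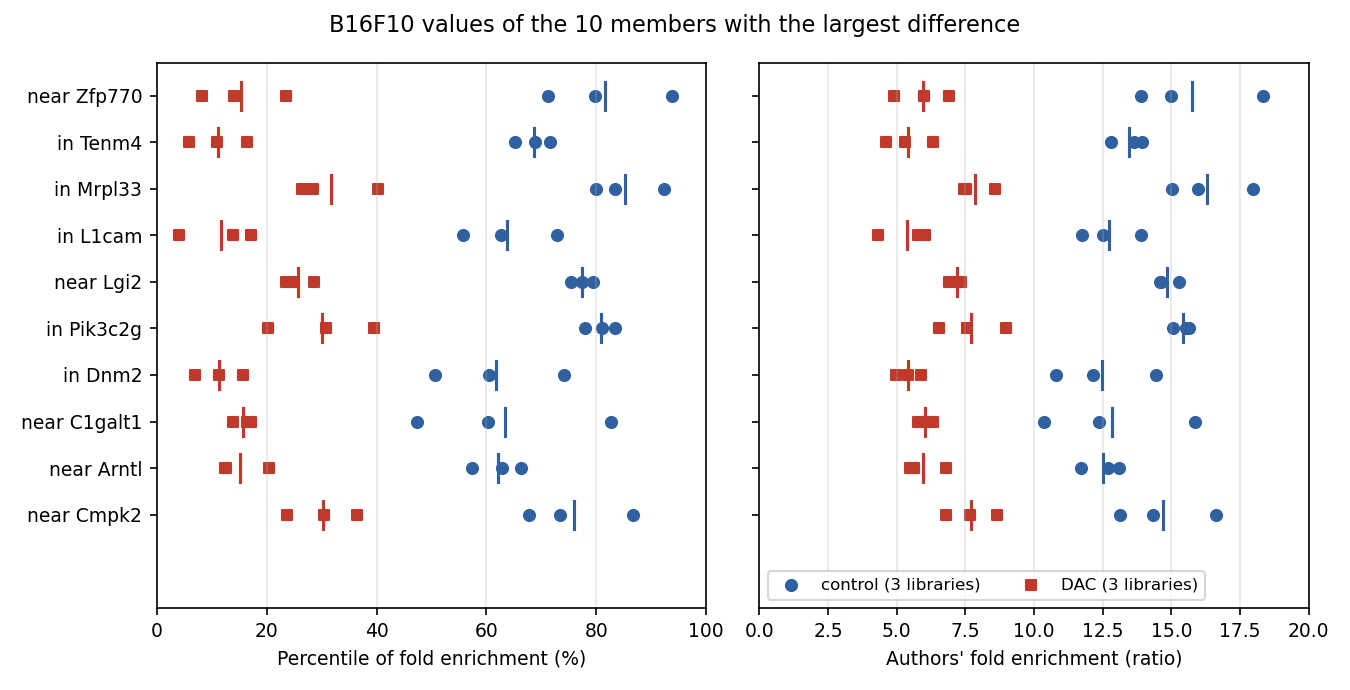
Percentile of fold enrichment (%, left) and the authors' fold enrichment (ratio, right) in each of the 3 control (blue circles) and 3 DAC (red squares) B16F10 libraries, for the 10 members with the largest difference, named by the gene they lie in or nearest to. Vertical bars are group means; the arms do not overlap by the choice of the regions, and DAC folds sit between 4.33 and 8.99.

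Members were mostly far from promoters. Within 1000 bp of the start of a protein-coding gene lay 101 members (6.44%), against 27.5% of the other shared regions. Introns held 48.6% of members and 36.3% of others, intergenic sequence 41.4% and 32.4%, and exons 3.57% and 3.82%. The median distance to the nearest start was 27145 bp in members and 15347 bp in others. Outside promoters members and others were placed nearly alike, with median distances of 29633.5 bp and 29513 bp. There introns held 52.0% and 50.1%, and intergenic sequence 44.2% and 44.7%. Regions that ranked higher after DAC were placed much as the members were, with 6.16% at promoters, 50.1% in introns and 40.5% between genes, so a scarcity of promoters was shared by both directions. Within 100000 bp of another member lay 26.8% of members, close to the 24.7% of other regions that had a member so near. By chromosome the share of shared regions that were members went from 2.95% on chromosome 8 to 5.59% on chromosome 14.

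CpG dinucleotides, the sites of DNA methylation in mammals, were sparse in members. The median was 1.11 CpGs per 100 bp, against 1.63 in the other shared regions and 1.20 in regions that ranked higher after DAC. Outside promoters the gap was smaller, with medians of 1.05 and 1.25. Sequence of island-like content made up 4.65% of members and 24.2% of others. At promoters, 58.4% of members and 75.3% of others were island-like, with 5.47 and 6.50 CpGs per 100 bp. Soft-masked repeats covered a median of 11.3% of a member and 9.67% of another region, and the summit lay in a repeat in 6.44% and 5.99%.

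Motif shares were taken in the 200 bp around the strongest summit on both strands, and a match is a description of the sequence, not of a bound factor. Of 25 motifs listed, 14 were more frequent in members than in the other shared regions and 11 less, and 18 differed by under 1 percentage point. CTCF stood highest, in 278 members (17.7%) against 9.62% of other regions and 5.84% of those that ranked higher. Outside promoters the CTCF shares were 18.6%, 12.6% and 5.96%. It lay a median of 35.0 bp from the summit both in members and in others. The CTCF excess was present at every control strength at which members were common. With shared regions put in 5 equal groups by mean control percentile, the 4 upper groups gave CTCF shares, from low to high, of 15.8%, 17.1%, 17.8% and 23.0% of members, against 11.8%, 12.6%, 10.6% and 6.44% of other regions, and the lowest group had only 9 members. It nearly vanished when regions were ranked by the −log10 q-value in place of the fold, with 10.89% of the 1056 members so chosen and 9.94% of other regions.

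AP-1 (TGANTCA) was scarce in members, with 62 (3.95%) against 8.34% of other regions and 29.3% of regions that ranked higher after DAC. Outside promoters the AP-1 shares were 4.16%, 10.4% and 30.7%. In the highest of the 5 control groups, members and others were nearly equal in AP-1, at 5.26% and 5.47%. Over all 2932 shared regions with AP-1, members or not, the median percentile was 39.5, 38.9 and 39.7 in controls and 48.2 in each DAC library. The same 3 control libraries placed the 3588 regions with CTCF at 50.9, 47.9 and 49.9, and the DAC libraries at 45.8, 47.1 and 45.2. Motifs of promoters were also rarer in members, with the SP and KLF word GGGCGGG at 4.97% against 15.98%, the ETS word CCGGAAG at 1.78% against 6.54% and NFY at 10.8% against 15.8%. Outside promoters these gaps narrowed to 3.68% against 5.94%, 1.16% against 2.53% and 10.5% against 11.9%. SOX words were in 12.7% of members, 11.6% of others and 17.4% of regions that ranked higher, and outside promoters the order of members and others turned, at 13.2% and 14.8%. The TEAD word GGAATG was in 13.5%, 13.2% and 17.7%, and outside promoters likewise turned, at 13.8% of members and 15.6% of others.

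**Figure D3:**
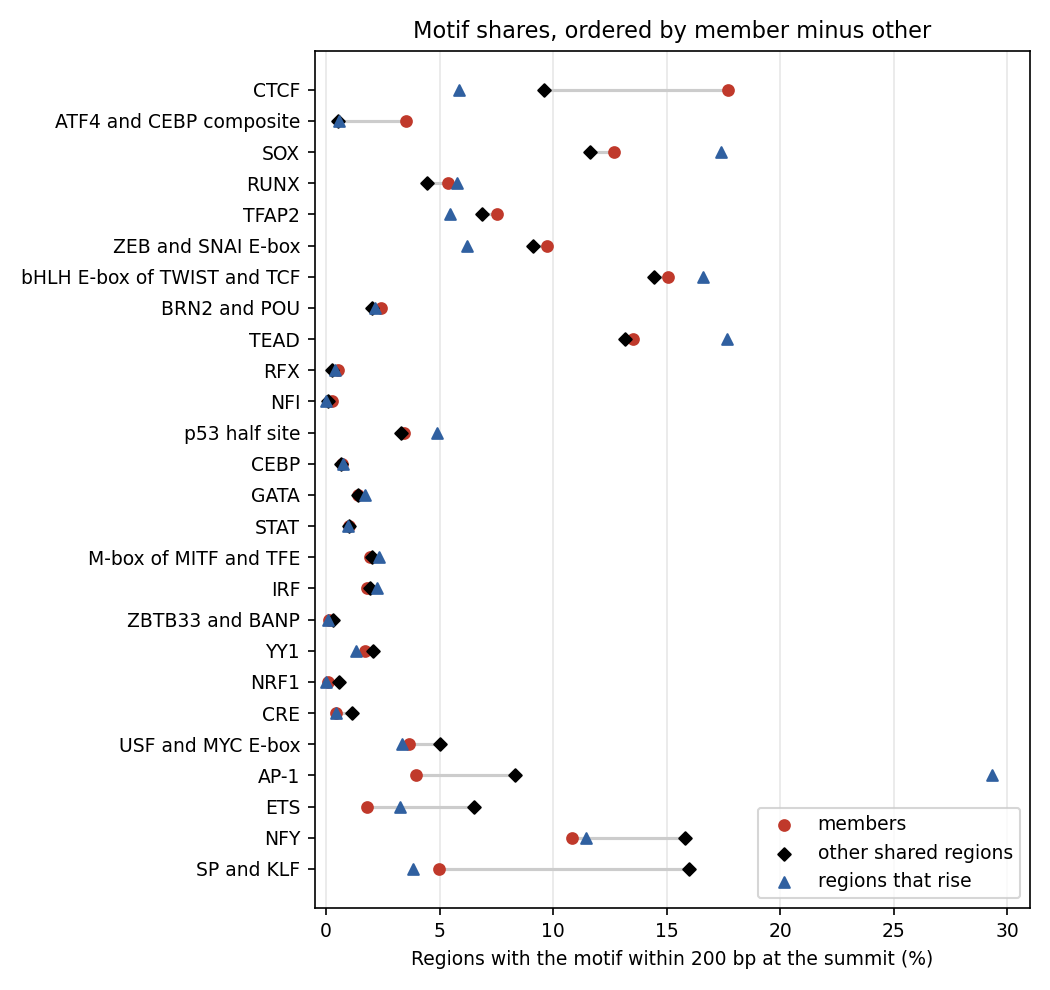
Share of regions (%) with each motif within the 200 bp around the summit, for the 1569 members (red circles), the other shared regions (black diamonds) and the 1592 regions that ranked higher after DAC (blue triangles), ordered by member minus other. CTCF is 17.7% in members and 5.84% in the regions that ranked higher, while AP-1 is 3.95% and 29.3%.

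A count of all 7-base words within 150 bp outside promoters was made to see which sequences the list had missed. Among the 2685 words held by at least 30 members, GATGCAA had the highest ratio of shares, with 4.22% of members and 1.26% of others, and ATGCAAT came next with 3.54% and 1.18%. Among words held by at least 700 other regions, the AP-1 word TGACTCA had the lowest ratio, with 1.77% of members, 6.37% of others and 22.3% of regions that ranked higher. GATGCAA is contained in the ATF4 and C/EBP composite TGATGCAA, which was then counted in the 200 bp window. It was in 55 members (3.51%), in 0.514% of other regions and in 0.565% of those that ranked higher. Put the other way, 23.7% of the 232 shared regions with TGATGCAA were members, against 4.24% of regions without it. The word was chosen on these same regions, so its share in them is no independent evidence.

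TGATGCAA was most frequent among the members with the largest differences. It was in 5 of the leading 10, 7 of the leading 20, 12 of the leading 50 and 18 of the leading 100. From rank 101 to 400 its share was 5.33%, from 401 to 800 2.25% and from 801 on 1.56%. CTCF went the other way, in 8 of the leading 100 and then in 56 of 300, 64 of 400 and 150 of 769 (19.5%), and AP-1 stayed between 3.77% and 4.25%. Both CTCF and TGATGCAA were held by 3 members. AP-1 was also held by 6 of the 55 members with TGATGCAA, beside 3.95% of all members. The 55 members with TGATGCAA had a median difference of 29.2 points, from 16.02 to 66.4, and 28 were in introns, 23 between genes, 2 in exons and 2 at promoters. Those promoters were of Phyhd1 and of Bcat1, which encodes a branched-chain amino acid transaminase, with differences of 22.0 and 19.3. In the members with TGATGCAA the median fold was 12.4, 12.4 and 11.3 in controls and 6.91, 7.15 and 6.42 in DAC. All 232 regions with the word, members or not, had median percentiles of 51.2, 51.6 and 44.5 in controls and 36.7, 37.0 and 37.5 in DAC, all DAC values below all control values. These medians include the 55 members, which were chosen to fall and on which the word was chosen. The 177 regions with the word that were not members had a median difference of 1.32 points. Other regions without the word were at −0.372. Members chosen by the −log10 q-value held the word more often, at 6.34% against 0.472% of other regions.

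**Figure D4:**
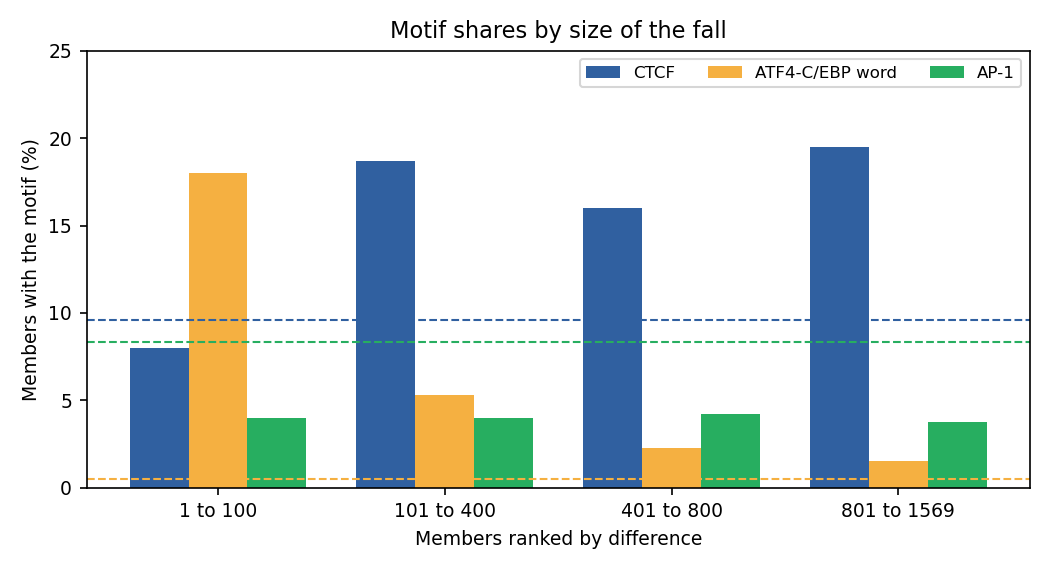
Share of members (%) with CTCF (blue), TGATGCAA (orange) or AP-1 (green) in 4 groups of members ranked by their difference, with dashed lines at the share in the other shared regions (9.62%, 0.514% and 8.34%). The TGATGCAA bar stands at 18 of the leading 100 and at 1.56% from rank 801 on, while CTCF is lowest in the leading 100 at 8.0%.

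Few genes had their promoter in a member. A promoter lay in a member for 107 protein-coding genes, 1.01% of the 10600 genes whose promoter lay in a shared region. The gene lists for AP-1 subunits, p53 targets and housekeeping genes had 1 such gene each. The gene of the AP-1 related factor BATF3, at chr1:191097257-191098858, read 33.9, 35.3 and 56.9 in controls and 10.3, 14.5 and 28.5 in DAC. Zmat3, a p53 target, had 35.9, 29.6 and 48.7 against 13.0, 15.1 and 16.5 at chr3:32364876-32366177. The region shared by the divergent genes Rps18 and Vps52, at chr17:33955277-33956405, had 77.9, 82.6 and 75.2 against 59.5, 58.0 and 50.3. In 4T1 the last 2 of these 3 promoters rose in rank after DAC, with control minus DAC differences of −18.2 for Zmat3 and −24.7 for Rps18 and Vps52 (limma adjusted p = 0.00165 and 0.000743). Batf3 was at −10.6 with a limma adjusted p of 0.0526. Of all promoter regions tested in 4T1, limma called 52.3% as rising and 6.51% as falling.

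The 10 promoter members with the largest differences ran from 25.1 to 37.1 points. The largest was at Rac3, a small GTPase gene, at chr11:120720230-120720961 with 66.5, 62.0 and 50.7 in controls and 21.3, 18.2 and 28.4 in DAC. The summit of this region was 796 bp from the Rac3 start, inside Lrrc45. In 4T1 the Rac3 promoter rose in rank, from 23.8, 28.2 and 24.3 to 37.8, 35.9 and 40.99 (limma adjusted p = 0.00364), the direction called for 52.3% of all promoter regions there. The region at the promoter of Ppm1j, a protein phosphatase gene, ranked lower after DAC in both lines. Its summit was 953 bp from the Ppm1j start, inside Fam19a3. In B16F10 the region went from 63.4, 43.1 and 49.5 to 24.7, 22.4 and 18.4. In 4T1 the same region went from 25.9, 33.2 and 26.3 to 1.13, 1.51 and 2.63 (limma adjusted p = 0.000502). Spocd1, a gene of piRNA-directed DNA methylation in germ cells, had 79.5, 80.8 and 80.7 against 36.6, 69.2 and 59.9 in B16F10, with DAC library 1 far below the other DAC libraries. In 4T1 the Spocd1 promoter went from 94.3, 96.4 and 94.8 to 54.9, 52.1 and 54.4 (difference 41.3, SE 1.52, limma adjusted p = 0.00014). The other 7 were the promoters of Gm47995, Duoxa1, Lcn9, Psrc1, Gper1, Plekhf1 and of the interferon-inducible GTPase gene Tgtp1.

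No melanocyte promoter was a member, of 15 that lay in a shared region. When each region was given to its nearest gene start, a link added after the data were seen, 11 of 111 regions of the melanocyte list (9.91%) were members and 5 ranked higher, against 4.36% and 4.42% over all shared regions. Other lists came close by the same link, with 10 of 110 regions (9.09%) for MAPK feedback genes, 7.32% for AP-1 subunits and 7.02% for p53 targets. The melanocyte members were given to 7 genes, 2 each to Mitf, Tyrp1, Trpm1 and Ednrb and 1 each to Pax3, Gpr143 and Slc24a5. Many were distant, from 6080 bp (Trpm1) to 316530 bp (Tyrp1) from that start. An intron of Mitf, the master regulator of melanocytes, held the largest, chr6:97964359-97965333, at 71.5, 75.1 and 51.6 in controls and 37.4, 24.3 and 33.5 in DAC. Of the pair given to Tyrp1, a gene of melanin synthesis, the larger was chr4:80788072-80789237, 45280 bp from that start. It had 52.7, 50.7 and 21.8 against 13.8, 11.6 and 5.92, and control library 3 was close to the DAC libraries. In an intron of Pax3, the neural crest factor gene, chr1:78163482-78164237 had 80.8, 61.5 and 78.1 against 32.6, 60.8 and 50.8, with control library 2 and DAC library 2 less than 1 point apart. Of these 11 members, 8 had no peak in any 4T1 library. By the same link, the most members given to any gene was 4, for Eps8 (of 6 regions), Fam198b (of 14) and Myc (of 23). The Myc members were all intergenic, with differences of 20.5 to 23.8, and lay 147594 to 577221 bp from its start. Among genes given 3 members, Cep170 had 3 of 3 regions and Zmiz1 3 of 20.

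The 4T1 libraries had no part in the choice of members and allowed a test. The question was whether sites that ranked lower in the melanoma line did so in the carcinoma line under its own, higher dose. Fewer members than other regions were open there, with a peak in all 6 4T1 libraries for 732 members (46.7%) and 63.5% of others, and in none for 39.3% and 26.1%. Outside promoters the gaps were smaller, at 44.1% and 51.8% in all 6 and 41.4% and 34.9% in none. With promoters included, 80.2% of members with a CTCF motif were open in all 6, and 39.4% of those without it. The same split was seen in the other shared regions, at 84.6% and 61.3%. Peaks in all 4T1 controls and no DAC library were present at 35 members (2.23%), and the reverse at 11 (0.701%), against 1.23% and 1.17% of the other shared regions. Where open, and with promoters included, members were weaker in 4T1 controls, at median percentiles of 39.4 to 40.6 against 50.4 in each control for the others. Members were lower still in DAC, at 28.4 to 30.1.

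Among the 22585 regions open in all 12 libraries, limma called 22.1% as falling and 32.1% as rising in rank in 4T1 after DAC at an adjusted p of 0.05. Of the 732 members, 302 (41.3%) fell and 82 (11.2%) rose. The selection rule itself, applied to the 4T1 percentiles, was met by 237 members (32.4%), against 14.8% of all regions. Its mirror image was met by 33 members (4.51%), against 13.8%. Promoters moved apart from the rest in 4T1, where 52.3% of all promoter regions rose and 6.51% fell. Outside promoters 44.9% of 648 members and 31.9% of other regions fell, and 8.02% and 19.3% rose. At the 84 promoter members open in 4T1, 11 fell and 30 rose. With the −log10 q-value ranked in 4T1 instead, the falling gap nearly vanished outside promoters and the rising gap remained. Then 25.8% of members and 20.4% of all regions fell, 13.3% and 21.5% rose. Outside promoters 26.9% of members and 26.4% of others fell and 10.96% and 18.1% rose. The selection rule was then met by 48 members (6.56%) against 6.66% of all regions. The 4T1 DAC libraries also held more peaks than the controls, 109188 to 119795 against 90608 to 95101, with median folds of 5.60 to 6.05 against 8.07 to 8.38, and the part of this in the ranks was not tested. Line and dose differed together, so they cannot be told apart.

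**Figure D5:**
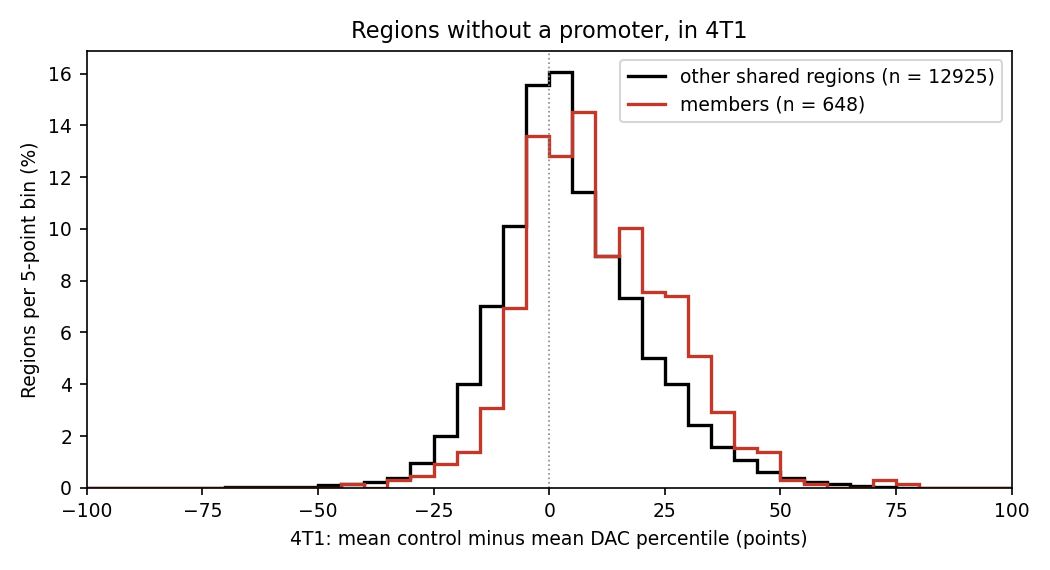
Distribution of the 4T1 difference (mean control minus mean DAC percentile of fold enrichment, in points, bins of 5) for members (red) and other shared regions (black) without a promoter and with a peak in all 6 4T1 libraries, as % of each set. The members are shifted to the right, with a median of 8.42 points against 2.61.

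In 4T1 the regions with CTCF and those with TGATGCAA were also counted apart. Among all regions with CTCF outside promoters, members or not, 41.4% of 2863 fell in rank in 4T1 and 9.08% rose, against 30.7% and 20.5% of regions with none of CTCF, TGATGCAA and AP-1. Of the CTCF members, 107 of 223 (48.0%) fell and 8 rose. Of the 118 regions with TGATGCAA that were open in all 4T1 libraries, 26 (22.0%) fell and 27 (22.9%) rose, against backgrounds of 22.1% and 32.1%. Outside promoters 24 of 89 (26.97%) fell and 12 (13.5%) rose, beside the 30.7% and 20.5% of regions with none of the 3 motifs. Of the 18 members among the 118, 6 fell and 1 rose. AP-1 regions outside promoters, whose median percentile was higher after DAC in B16F10, were at 28.2% falling and 25.04% rising in 4T1. Whether these shares differ between the lines beyond the spread of the libraries was not tested.

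The members with the largest falls in 4T1 were open there at high rank. The largest was chr2:113689480-113690251 in an intron of the formin gene Fmn1, at 78.5, 69.0 and 88.3 in 4T1 controls and 4.80, 1.80 and 3.37 in DAC (difference 75.3, SE 4.76, limma adjusted p = 0.000276). The same region went from 45.8, 39.7 and 52.7 to 13.8, 16.4 and 5.92 in B16F10. An exon of Stk38l, a protein kinase gene, held chr6:146776356-146777221, which went from 89.7, 80.4 and 93.8 to 14.9, 14.9 and 20.4 in 4T1 (limma adjusted p = 0.000207). In B16F10 that exon fell less far, from 71.3, 59.8 and 73.0 to 51.2, 45.5 and 51.6. Near Khdc4, chr3:88677418-88677809 went from 92.0, 88.2 and 86.0 to 20.7, 16.5 and 15.7 in 4T1 (limma adjusted p = 0.000137). The next 7 fell by 49.0 to 55.7 points in 4T1, in introns of Adamts17 and Zhx2, an exon of Faap100, and between genes near Rnf24, Cfd, Cast and Rnf112. The regions in Faap100 and near Cast held a CTCF motif, and none of the 10 held TGATGCAA in its window.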

How the data were processed

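ATAC-seq was done on 12 libraries of 2 mouse lines, and 1 MACS2 peak list per library was used. Fold enrichment (a ratio) and the −log10 q-value of each peak are the authors' deposited values; read counts and depth are unknown. The submitters' processing notes name MultiQC, FastQC, Bowtie2, Picard, MACS2, DiffBind, ChIPseeker and the build mm10; options are not given in the sources used here.

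Peaks on the 19 autosomes and X sharing at least 1 bp were merged, and a library's highest fold in a region was ranked among shared regions. Genes came from GENCODE release M21 and sequence from GRCm38, the assembly of mm10 (Python 3.11.15, pysam 0.24.0). Promoters were gene starts plus and minus 1000 bp. Islands needed GC above 50.0% and CpG observed to expected above 0.6. The 4T1 test was limma 3.58.1 on percentiles, with Benjamini-Hochberg adjustment over 22585 regions, tested on simulated data. Motifs, 7-base words and 14 gene lists of 238 symbols (236 matched) were counted without a test.

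Named were the 10 largest members, the 10 largest promoter members, promoter members of the lists, 3 regions on either side of the threshold, and the 10 largest falls and 5 largest rises among members in 4T1. A gene that this naming covers is left out of the text. The members and lists were chosen with earlier results of these data known. TGATGCAA, the nearest-gene link, the 5 groups by control percentile and the split by promoter were added after the data were seen.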

Additional observations from a re-analysis of the deposited data

Results flagged for a closer look

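A difference between the lines picked out 33 members, which ranked lower after DAC in B16F10 and met the mirrored rule in 4T1, with all 4T1 DAC percentiles above all control percentiles and a mean rise of at least 15 points. The difference between the lines itself was not tested. The mirrored rule was met by 4.51% of members with a peak in all 6 4T1 libraries, against 13.8% of all such regions. At promoters the shares were 15.5% and 23.2%. Of the 33 members, 13 lay at promoters and 7 had island-like content. The largest was in an intron of Washc5 (nearest start Sqle, chr15:59337766-59339147), at 7.62, 4.02 and 13.0 in 4T1 controls and 50.7, 55.8 and 44.1 in DAC, a control minus DAC difference of −42.0. In B16F10 it had 74.9, 61.7 and 71.6 in controls and 55.3, 48.9 and 58.4 in DAC. The difference in 4T1 was −33.5 between genes at chr4:68116293-68116715, −32.0 near Tmc5 (chr7:118594994-118595703), −31.6 at the Plekhf1 promoter (chr7:38227181-38228306) and −27.1 in an intron of Impdh1 (chr6:29205087-29205668), all with limma adjusted p of 0.00236 or less. The region on chromosome 4 was 100% soft-masked repeat with 4.02 CpGs per 100 bp. Its nearest start, that of Brinp1, was 837931 bp away.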

How the results depend on the processing

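Ranking by −log10 q chose 1056 members, of which 769 were among the 1569. A difference of at least 10 gave 2610 members and of at least 20 gave 860. Peaks with −log10 q of at least 5 gave 1524, and leaving out a B16F10 library gave 1949 to 2218, since fewer libraries had to separate. With members chosen on −log10 q, median CpG per 100 bp was 0.973, the promoter share 5.11% and CTCF 10.89%. Of 338 such members in 4T1, with the fold still ranked there, 123 (36.4%) fell and 40 (11.8%) rose. Over all regions 22.1% fell and 32.1% rose. At a difference of 10 the members had 1.21 CpG, 10.4% promoters and 15.8% CTCF, and at 20 they had 0.989 CpG and 4.53% promoters. Promoters within 2000 bp gave 7.78%. In a window of 100 bp CTCF was 14.9%, AP-1 1.78% and TGATGCAA 1.91% against 0.264% of others. Over whole regions AP-1 was 19.4% against 24.1% and TGATGCAA 5.93% against 2.07%. With −log10 q ranked in 4T1, 189 members fell by limma (25.8% against 20.4% of all regions). The selection rule was met by 48 (6.56% against 6.66%).

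Leaving out a 4T1 library left 261 to 291 members falling, 70 to 79 rising and 235 to 243 meeting the rule. Leaving out a B16F10 library gave a median CpG of 1.12 to 1.13, 6.06% to 7.28% promoters, 16.5% to 19.3% CTCF, 4.12% to 4.55% AP-1 and 2.79% to 3.18% TGATGCAA. With a replicate block, 301 members (41.1%) fell and 80 (10.9%) rose in 4T1, against 20.8% and 29.4% of all regions. Same-numbered 4T1 libraries correlated at −0.0195, 0.0222 and 0.0221 after group means were removed, so no pairing by number was seen in these values. The labels do not say whether same-numbered libraries were prepared together. Depth per library is unknown, so no counting interval could be given.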
